A study of Mus musculus with 8 samples.

Results

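Expression of 10 genes was described in superior cervical ganglia of newborn mice: the acetylcholine genes Chat, Slc18a3, Slc5a7, Ache and Prima1, the homeobox regulators Hmx1 and Tlx3, and the cytokine receptor genes Lifr, Il6st and Cntfr. They were taken by symbol from a count table of 23827 rows, each found on 1 row, and 9 of them passed the filter on low counts. Chat did not. Conditional knockout (cKO) animals, of genotype KIF1Bb fl/fl with DBHcre +/-, were compared with control (WT) animals, of genotype KIF1Bb fl/fl with DBHcre -/-, on postnatal day 1 and on the C57Bl6/n strain. All animals thus carried the allele flanked by loxP sites, and Cre was present in the cKO group alone, so effects of Cre and of the deletion cannot be told apart. The Cre is named for Dbh, the gene of dopamine beta-hydroxylase, which noradrenergic cells express, and other cells of the ganglion are not targeted by design. Each group had 4 libraries of polyadenylated RNA, each from the paired ganglia of 1 animal.

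Acetylcholine is made from choline and acetyl coenzyme A by choline acetyltransferase, loaded into vesicles by the vesicular acetylcholine transporter, and broken down outside the cell by acetylcholinesterase, after which choline is taken up again. Most sympathetic neurons are noradrenergic, and a minority that innervates sweat glands and periosteum becomes cholinergic. In rodents this change is induced after birth by target-derived cytokines that act through gp130, the shared signalling receptor chain encoded by Il6st, together with the receptor chains for leukaemia inhibitory factor and ciliary neurotrophic factor.

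Total counts lay between 16214912 and 18114418 per library. Kif1b, the gene targeted in cKO animals, had 302, 191, 300 and 246 CPM in the cKO libraries, where CPM is the count relative to the library total scaled by the TMM method, against 1450, 1320, 933 and 1190 CPM in the WT libraries. The noradrenergic genes Th and Dbh, which define these neurons, averaged 1230 ± 74.7 and 2120 ± 69.7 CPM in cKO ganglia, against 1340 ± 107 and 2420 ± 195 CPM in WT ganglia (SD, n = 4 each). Libraries cKO 1 and WT 1 stood apart on the first principal component, which held 37.1% of the variance. The sum over 16 genes of muscle and cartilage came to 273 CPM in cKO 1, where the other cKO libraries had 76.7 to 88.3 CPM, and to 137 CPM in WT 1, where the other WT libraries had 67.4 to 76.7 CPM. Sensory neuron genes were highest in cKO 4 and WT 4, with a mean log2 CPM over 10 tested genes of 3.51 and 2.75, against at most 2.37 in the other cKO libraries and 2.18 in the other WT libraries. Some marker lists differed between the groups, while the sums of macrophage, sensory neuron, motor neuron, and muscle and cartilage genes overlapped. Over 11 macrophage genes the sum was 234 to 377 CPM in cKO and 195 to 301 CPM in WT libraries, and none passed. The sum over 9 noradrenergic genes was 9950 to 10200 CPM in cKO and 11700 to 12200 CPM in WT libraries, without overlap, and none of the 9 passed. Over 12 pan-neuronal genes the sum was 14700 to 17500 CPM in cKO and 17600 to 19600 CPM in WT libraries, and 2 of them fell. Over 15 glial genes it was 3450 to 3960 CPM in cKO and 2290 to 2880 CPM in WT libraries, and 4 of 14 tested rose. Of 14 vessel and 10 fibroblast genes, 5 of each list rose. At an adjusted p below 0.05 in edgeR, 1.6% of all tested genes rose and 1.12% fell. In bulk ganglia, fewer cells of a type and less RNA per cell cannot be told apart, and the part of cell composition in the results below was not tested.

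Chat, which encodes choline acetyltransferase, and Slc18a3, which encodes the vesicular acetylcholine transporter VAChT, form one locus on chromosome 14. Chat (ENSMUSG00000021919.8) lies at 32408203 to 32465989 and Slc18a3 (ENSMUSG00000100241.1) at 32462438 to 32464850, both on the minus strand of GRCm38. Slc18a3 is a single exon of 2413 bases inside the first intron of transcript Chat-201, which is 4893 bases long, and starts 1107 bases after that transcript does. The exons of the 2 genes do not overlap. Their promoters are shown with that of Slc5a7 (chromosome 17, 54273590 to 54299034, minus strand), because these 3 genes showed the largest differences among those with a known place in acetylcholine synthesis, storage and uptake. Each sequence runs 5′ to 3′ from 250 bases before to 50 bases after a RefSeq start on GRCm38.p6, all from the minus strand, and capitals mark CAAGTG, a core sequence that HMX homeodomain proteins are known to bind.
Chat promoter, chr14:32465860-32466159: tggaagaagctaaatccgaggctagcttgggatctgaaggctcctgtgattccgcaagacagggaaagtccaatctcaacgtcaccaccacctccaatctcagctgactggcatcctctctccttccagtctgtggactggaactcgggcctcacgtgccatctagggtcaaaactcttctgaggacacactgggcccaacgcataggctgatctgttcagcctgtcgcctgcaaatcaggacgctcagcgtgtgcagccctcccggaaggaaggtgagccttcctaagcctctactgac
Slc18a3 promoter, chr14:32464801-32465100: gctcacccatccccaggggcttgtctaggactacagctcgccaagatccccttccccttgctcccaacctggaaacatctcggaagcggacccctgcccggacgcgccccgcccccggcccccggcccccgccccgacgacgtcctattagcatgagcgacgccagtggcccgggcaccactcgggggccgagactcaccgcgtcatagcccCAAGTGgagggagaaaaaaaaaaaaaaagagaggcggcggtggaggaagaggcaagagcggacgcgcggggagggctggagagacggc
Slc5a7 promoter, chr17:54298985-54299284: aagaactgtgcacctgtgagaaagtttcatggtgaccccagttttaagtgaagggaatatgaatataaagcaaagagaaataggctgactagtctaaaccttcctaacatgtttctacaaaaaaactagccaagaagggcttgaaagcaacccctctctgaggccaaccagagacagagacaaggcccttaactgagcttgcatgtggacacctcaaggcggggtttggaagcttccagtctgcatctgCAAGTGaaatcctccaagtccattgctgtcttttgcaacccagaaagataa
CAAGTG stood at position -38 from the start in Slc18a3 and at -1 in Slc5a7, and was not found on either strand of the Chat window. The same letters were present in 4 of 16 RefSeq promoters of the 10 genes (those of Slc18a3, Slc5a7, Prima1 and Il6st, all on the gene's own strand), and in 13.6% of 32851 promoters of the same length. TTCNNNGAA, the sequence that STAT factors are known to bind, which reads alike on both strands, was found in 1 of the 16, that of Tlx3, and in 8.3% of all promoters. No promoter of the 10 genes held both motifs, so no matches overlapped. A match of letters is a description and not a binding site.

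**Figure D1:**
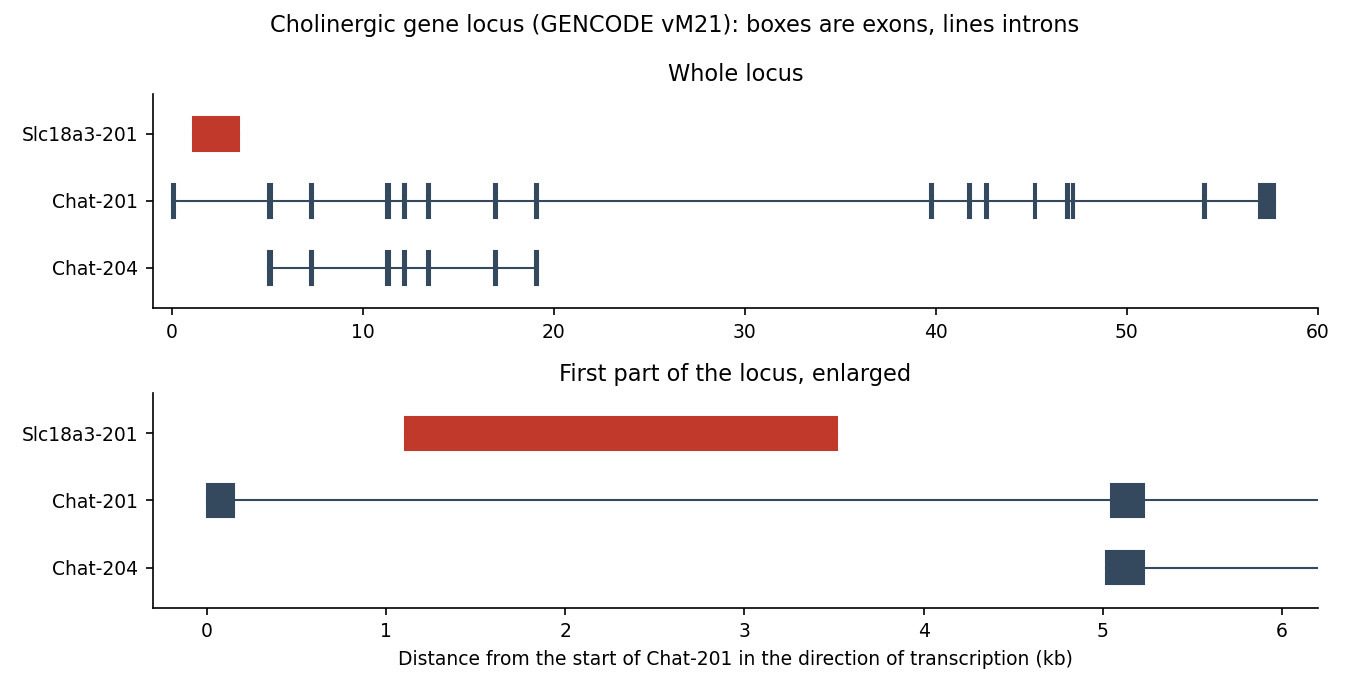
Map of the cholinergic locus by distance in kilobases from the start of Chat-201, with the whole locus above and its first part enlarged below. Slc18a3, a single box, lies wholly in the first intron of Chat-201, and transcript Chat-204 starts beyond it.

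None of the 9 tested genes passed the threshold, an adjusted p below 0.05 in edgeR's quasi-likelihood test over 14592 genes, where 2.72% of all tested genes passed (1.6% higher and 1.12% lower in cKO ganglia). At an unadjusted p below 0.05 there were 4, Slc18a3, Slc5a7, Lifr and Cntfr. DESeq2's Wald test called 2 of the 9, Slc18a3 and Slc5a7, and limma voom called 1, Slc18a3. Of the 9 genes, 5 had positive and 4 negative log2 fold changes, with a median of 0.11, against a median of -0.001 over all tested genes. Groups did not overlap for 1 gene that was higher, Slc18a3, and 1 that was lower, Slc5a7. Over all tested genes, groups did not overlap in 11%, 6% higher and 5.02% lower.

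**Figure D2:**
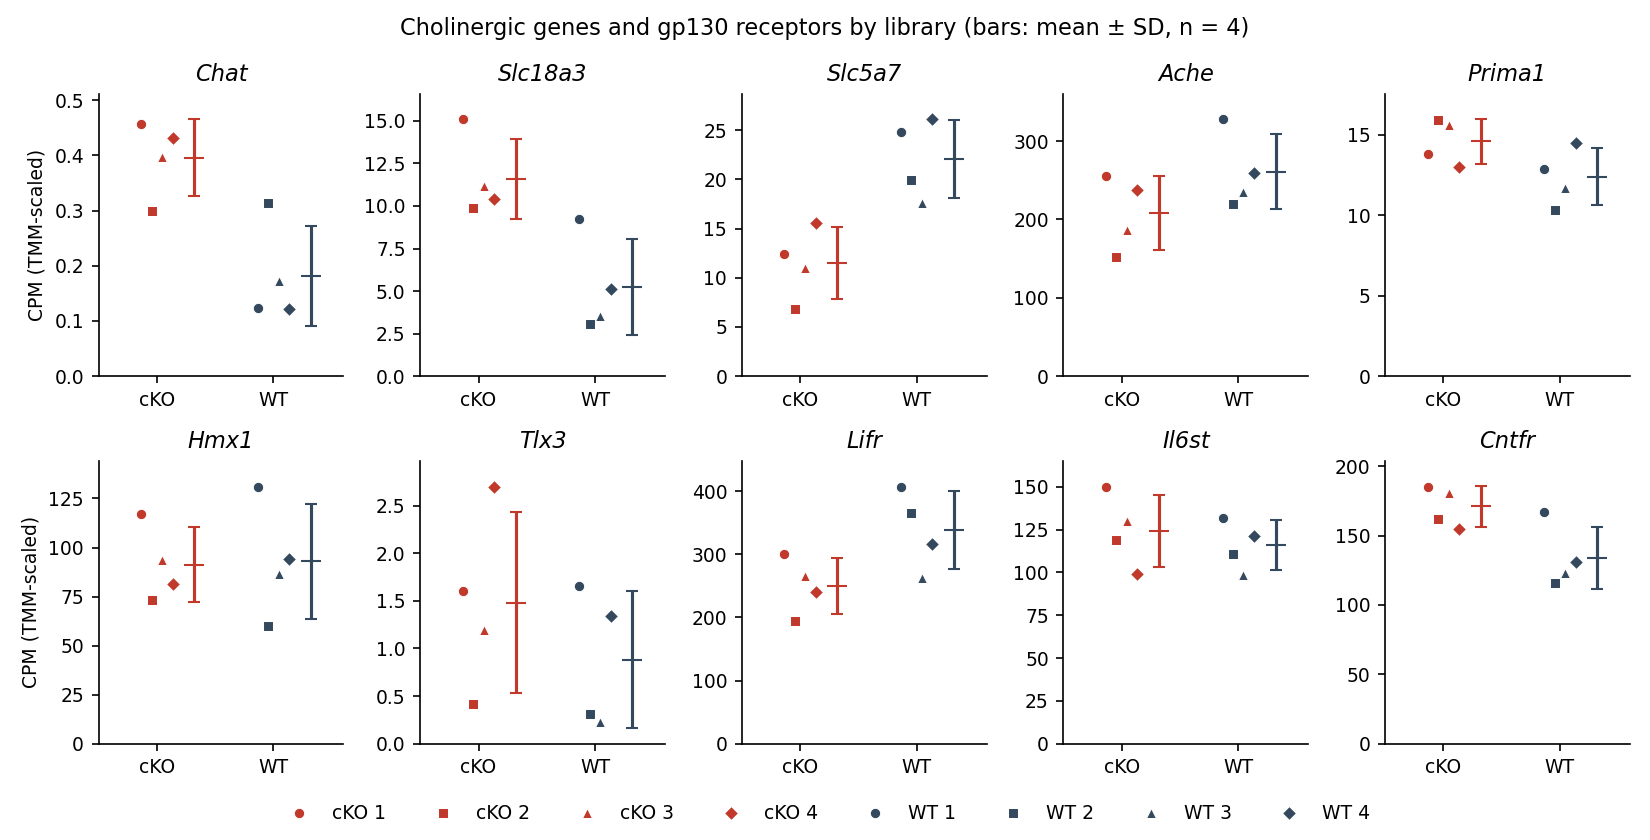
CPM of each of the 10 genes by library on linear axes from 0, with cKO in red on the left and WT in dark blue on the right, 1 symbol per sample number, and bars for the mean ± SD of 4 libraries. The groups are separate for Slc18a3 and Slc5a7, with the cKO libraries above for the first and below for the second, and overlap for the other 8 genes.

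Slc18a3 had 264, 166, 197 and 192 counts in the cKO libraries, against 151, 49, 62 and 84 in the WT libraries. This was 15.1, 9.91, 11.2 and 10.4 CPM in cKO, against 9.26, 3.07, 3.55 and 5.11 CPM in WT libraries. The groups did not overlap, but WT 1, one of the libraries that stood apart, lay close below the lowest cKO library, and cKO 1 was the highest of all. The means were 11.6 ± 2.36 CPM in cKO and 5.25 ± 2.81 CPM in WT ganglia (SD, n = 4 each). On the log2 scale cKO ganglia were 1.15 higher (SE 0.31, edgeR adjusted p = 0.0834). An exact two-sided permutation test gave p = 0.0286, the least possible with 70 assignments. Without WT 1 the log2 fold change was 1.57 and passed (edgeR adjusted p = 0.00718), and without both cKO 1 and WT 1 it was 1.42 and passed (adjusted p = 0.0102). Over 17 alternatives its adjusted p lay between 0.00718 and 0.271.

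Slc5a7, which encodes the high-affinity choline transporter that returns choline to cholinergic terminals, differed in the opposite direction. It had 217, 115, 194 and 290 counts in the cKO libraries, against 404, 318, 308 and 429 in the WT libraries. In CPM these were 12.4, 6.87, 11 and 15.6 in cKO, against 24.8, 19.9, 17.6 and 26.1 in WT libraries. Every cKO library lay below every WT library, and cKO 4 came nearest to the WT range. The means were 11.5 ± 3.64 CPM in cKO and 22.1 ± 3.98 CPM in WT ganglia (SD, n = 4 each). This was a log2 difference of -0.94 (SE 0.23, edgeR adjusted p = 0.0553; exact permutation p = 0.0286, the least possible). It passed without cKO 4, at -1.13 (adjusted p = 0.036), and its adjusted p lay between 0.00265 and 0.175 over 17 alternatives.

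Within a library the ratio of Slc18a3 to Slc5a7 counts does not depend on scaling between libraries. It was 1.22, 1.44, 1.02 and 0.662 in the cKO libraries, against 0.374, 0.154, 0.201 and 0.196 in the WT libraries. All cKO ratios lay above all WT ratios, and the mean log2 ratio was 0.06 ± 0.48 in cKO and -2.2 ± 0.55 in WT ganglia (SD, n = 4 each), a 4.78-fold difference. This ratio was chosen after the values were seen and carries no test.

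Chat was scarcely detected. It had 8, 5, 7 and 8 counts in the cKO libraries, against 2, 5, 3 and 2 in the WT libraries, or 0.396 ± 0.0695 CPM in cKO and 0.182 ± 0.0905 CPM in WT ganglia (SD, n = 4 each). The lowest cKO library, cKO 2, lay under the highest WT library, WT 2, so the groups overlapped. Summed over libraries the counts were 28 in cKO and 12 in WT, a ratio of 2.19 after scaling by library size (95% interval 1.08 to 4.74, counting error only). The exact two-sided permutation p was 0.0571. In a fit without the filter Chat differed by 1.09 on the log2 scale (SE 0.44, edgeR adjusted p = 0.279). Slc18a3 had between 24.0 and 33.2 counts for each Chat count in the cKO libraries, against between 9.8 and 75.5 in the WT libraries, where Chat rested on 5 counts or fewer. The exons of Chat and Slc18a3 share no bases in GENCODE vM21. The sources used here do not say which annotation served for counting or how reads at this locus were assigned.

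Ache, the gene of acetylcholinesterase (chromosome 5, 137287519 to 137294466, plus strand), was far more abundant. It had 255, 152, 187 and 238 CPM in the cKO libraries, against 328, 220, 235 and 259 CPM in the WT libraries. The groups overlapped, with cKO 1 and cKO 4 inside the WT range. Its log2 fold change, -0.32 (SE 0.18, edgeR adjusted p = 0.413), had an approximate 95% interval from -0.67 to 0.02. Prima1 encodes the proline-rich membrane anchor that tethers acetylcholinesterase tetramers to the cell surface, and averaged 14.6 ± 1.4 CPM in cKO and 12.4 ± 1.78 CPM in WT ganglia (SD, n = 4 each). It differed by 0.23 on the log2 scale (SE 0.14, edgeR adjusted p = 0.457), with an interval from -0.04 to 0.51. There were between 9.51 and 18.5 Ache counts for each Prima1 count in cKO libraries, against 17.8 to 25.4 in WT libraries, and these ranges overlapped. A long noncoding RNA gene on the other strand, Gm42456, overlaps 98 bases of Ache exons.

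Hmx1 encodes a homeodomain factor that, in mouse, is known to favour the noradrenergic state of sympathetic neurons. It had 117, 73.3, 93.4 and 81.3 CPM in the cKO libraries, against 131, 60.0, 86.4 and 94.0 CPM in the WT libraries. The group ranges lay almost on top of each other, and library 1 was the highest in both groups. The log2 fold change was -0.03 (SE 0.22, edgeR adjusted p = 0.98), with an interval from -0.46 to 0.41. Its sign turned in 8 of 17 alternatives, none of which passed. A gene on the other strand, 4930442P19Rik, overlaps 175 bases of Hmx1 exons. Tlx3, a homeodomain factor linked in mouse to the cholinergic state and also expressed by sensory neurons, had 1.6, 0.418, 1.19 and 2.7 CPM in the cKO libraries, against 1.66, 0.313, 0.229 and 1.34 CPM in the WT libraries. It was highest in cKO 4, WT 1 and cKO 1, and the groups overlapped widely. Tlx3 differed by 0.75 on the log2 scale (SE 0.63, edgeR adjusted p = 0.631), and by 0.29 without cKO 4 to 1.24 without WT 1 with 1 library left out. In cKO 4 Scn10a, a sodium channel of sensory neurons, had 38.0 CPM, against 2.09 to 2.8 CPM in the other cKO libraries, and 15 CPM in WT 4, against 3.04 to 4.89 CPM in the other WT libraries. The part of sensory neurons in the Tlx3 values was not tested.

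Lifr encodes the receptor chain that binds leukaemia inhibitory factor and pairs with gp130. It had 300, 195, 265 and 240 CPM in the cKO libraries, against 407, 365, 263 and 317 CPM in the WT libraries. The groups overlapped through WT 3, which lay among the cKO values, while the other WT libraries were above all cKO libraries. The means were 250 ± 44.5 CPM in cKO and 338 ± 62.0 CPM in WT ganglia (SD, n = 4 each), a difference of -0.44 on the log2 scale (SE 0.16, edgeR adjusted p = 0.201; exact permutation p = 0.0857). Cntfr, the gene of the membrane-anchored chain that binds ciliary neurotrophic factor and recruits Lifr and gp130, lay the other way. It had 185, 162, 181 and 155 CPM in the cKO libraries, against 167, 116, 123 and 131 CPM in the WT libraries. Only WT 1 reached into the cKO range. The log2 fold change was 0.35 (SE 0.13, edgeR adjusted p = 0.193, exact permutation p = 0.0857). With 1 library left out it ranged from 0.28 to 0.46, the highest without WT 1, with edgeR adjusted p from 0.052 to 0.45.

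Il6st, the gene of gp130, had 150, 119, 130 and 98.9 CPM in the cKO libraries, against 132, 111, 98.2 and 121 CPM in the WT libraries. The groups overlapped over nearly their whole range. The log2 fold change was 0.11 (SE 0.14, edgeR adjusted p = 0.797), with an interval from -0.17 to 0.38, and -0.0068 without cKO 1. There were 1.62, 1.2, 1.46 and 1.54 Lifr counts for each Cntfr count in the cKO libraries, against 2.43, 3.14, 2.13 and 2.43 in the WT libraries. Each cKO ratio was below each WT ratio, and the mean log2 ratios were 0.53 ± 0.19 in cKO and 1.33 ± 0.23 in WT ganglia (SD, n = 4 each). Lifr over Il6st counts ranged from 1.63 to 2.42 in cKO and from 2.62 to 3.29 in WT libraries. These ratios were also chosen after the values were seen and are given without a test.

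**Figure D3:**
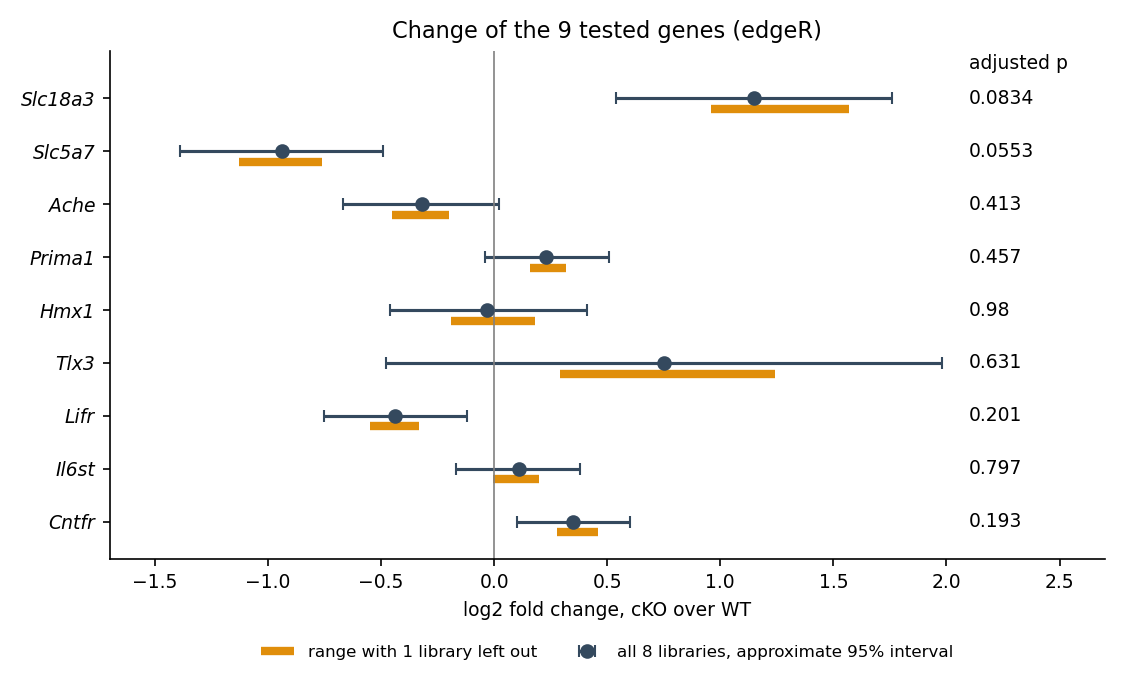
Log2 fold change of each of the 9 tested genes, cKO over WT, with its approximate 95% interval (dark blue), the range with 1 library left out (orange) and the edgeR adjusted p at the right. Slc18a3 at 1.15 and Slc5a7 at -0.94 lie farthest from 0 in opposite directions, and no adjusted p is below 0.05.

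Levels of different genes were compared per kilobase of exon, from the union of exons in GENCODE vM21. In cKO ganglia the order was Cntfr with 61.4 ± 5.21 CPM per kb, Hmx1 with 57.5 ± 12, Ache with 45.0 ± 10.2, Lifr with 23.2 ± 4.13, Prima1 with 11.6 ± 1.12 and Il6st with 11.2 ± 1.9 CPM per kb (SD, n = 4). Below these came Slc18a3 with 4.82 ± 0.978, Slc5a7 with 2.03 ± 0.644, Tlx3 with 0.963 ± 0.62 and Chat with 0.0842 ± 0.0148 CPM per kb. In WT ganglia Hmx1 came first with 58.5 ± 18.5 CPM per kb, then Ache with 56.4 ± 10.3, Cntfr with 48.3 ± 8.1, Lifr with 31.4 ± 5.75, Il6st with 10.4 ± 1.3 and Prima1 with 9.89 ± 1.42 CPM per kb (SD, n = 4). The lower ranks in WT ganglia were Slc5a7 with 3.92 ± 0.705, Slc18a3 with 2.17 ± 1.16, Tlx3 with 0.576 ± 0.47 and Chat with 0.0388 ± 0.0192 CPM per kb. In both groups the libraries of Hmx1, Ache and Cntfr overlapped between neighbours in the order, as did those of Il6st and Prima1. Slc18a3 ranked above Slc5a7 without overlap in cKO ganglia, and below it with overlap in WT ganglia. Tlx3 overlapped with Slc5a7 above it in cKO ganglia, and Chat lay apart from all others in both groups.

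**Figure D4:**
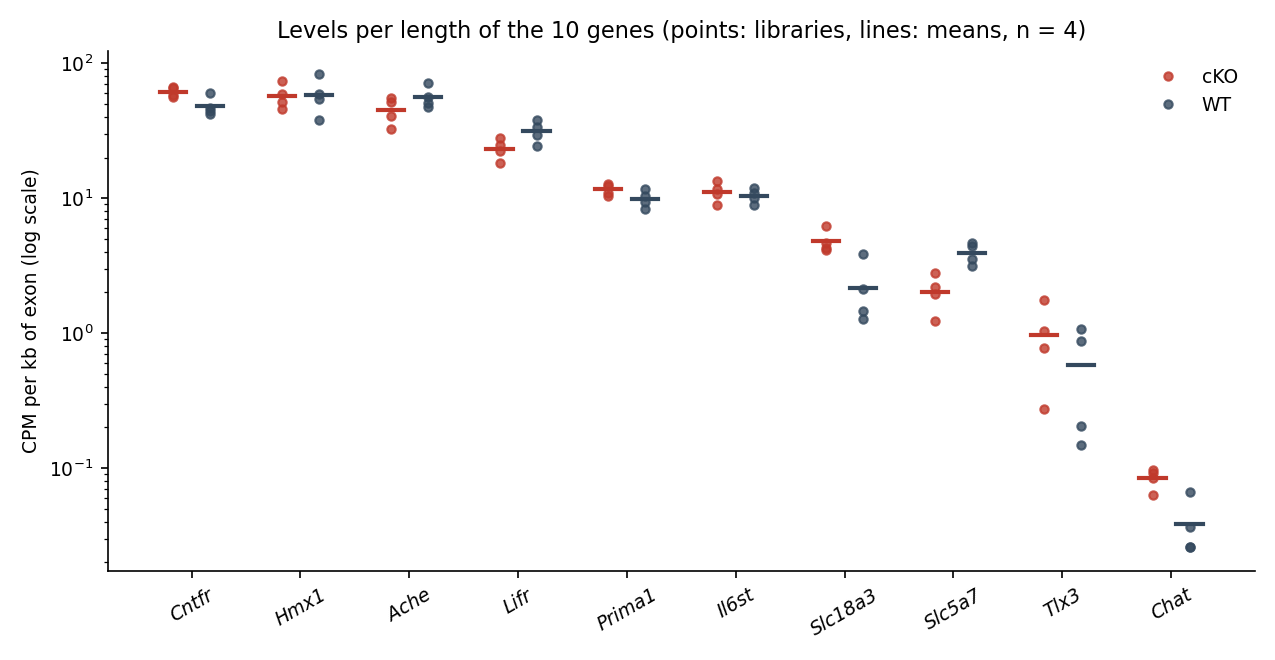
CPM per kilobase of exon on a log axis for the 10 genes in the order of the cKO means, with libraries as points and means as lines, cKO in red left of WT in dark blue. The levels run from 61.4 CPM per kb for Cntfr to 0.0842 for Chat in cKO ganglia, and Slc18a3 and Slc5a7 change places between the groups.

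Other genes of acetylcholine and gp130 signalling came from 8 lists with 105 genes beside the 10, of which 85 were tested. In these, 2 rose and 5 fell, or 8.24%, where 2.72% of all tested genes passed, and the median log2 fold change was -0.02. The 7 calls became 1 without both cKO 4 and WT 4, 2 without cKO 3, WT 2 or WT 4, 3 without cKO 2, 4 without WT 3 and 12 with DESeq2. The lists were chosen with earlier results of these data known. Among 4 tested gp130 ligand genes none passed, and Clcf1 and Lif, the ligand genes with the smallest p, stood at 0.93 (SE 0.40) for Clcf1 and 0.25 (SE 0.42) for Lif on the log2 scale, and Lif turned to -0.12 without cKO 2. Both were near 1 CPM or lower, where depth limits what can be seen. Cntf itself had 19 counts over the cKO and 9 over the WT libraries and was not tested. Among 6 tested genes for other receptors of the family, Lepr rose and none fell. Lepr, the leptin receptor, had 22.2, 27.5, 21.5 and 21.6 CPM in the cKO libraries, against 14.5, 14.4, 15.8 and 16 CPM in the WT libraries (log2 fold change 0.61, SE 0.12, edgeR adjusted p = 0.027). It is found in vessels and mesenchyme as well, some of whose marker genes also rose, and their part in its change was not tested. That call was lost without WT 2 (adjusted p = 0.105), WT 3, WT 4, cKO 2 or cKO 3.

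Of 20 JAK-STAT pathway genes 2 fell, Stat3 and Socs3, and none rose (median -0.05). Stat3, the transcription factor that gp130 receptors activate, had 126, 117, 134 and 126 CPM in the cKO libraries, against 197, 195, 183 and 183 CPM in the WT libraries. The groups were far apart relative to their spread, and the log2 fold change was -0.59 (SE 0.09, edgeR adjusted p = 0.00856). It passed with each library left out, with adjusted p from 0.0168 to 0.0488, and lost the call without both cKO 4 and WT 4 (adjusted p = 0.0829). Socs3, a feedback inhibitor of gp130 signalling that STAT3 induces, had 11.1, 6.03, 7.32 and 7.66 CPM in the cKO libraries, against 22.4, 13.0, 13.9 and 16.9 CPM in the WT libraries. Each cKO library lay below each WT library, and library 1 was the highest in both groups. Its log2 fold change was -1.04 (SE 0.22, edgeR adjusted p = 0.0374), a call lost without any of WT 2, WT 3, WT 4, cKO 2, cKO 3 or cKO 4 (adjusted p up to 0.113). The receptor-bound kinase genes differed little, Jak1 by 0.02 (SE 0.11) and Jak2 by -0.03 (SE 0.12) on the log2 scale. The Socs3 promoter is shown because it holds TTCNNNGAA, in capitals, at position -154, on GRCm38.p6 and the minus strand. No such match was found in the RefSeq promoter windows of Stat3, Serpina3n, Slc44a5, Chrm2 and Lepr, and 8.3% of all promoters held one. The match is a description and not a binding site, and its part in the fall of Socs3 was not tested.
Socs3 promoter, chr11:117969317-117969616: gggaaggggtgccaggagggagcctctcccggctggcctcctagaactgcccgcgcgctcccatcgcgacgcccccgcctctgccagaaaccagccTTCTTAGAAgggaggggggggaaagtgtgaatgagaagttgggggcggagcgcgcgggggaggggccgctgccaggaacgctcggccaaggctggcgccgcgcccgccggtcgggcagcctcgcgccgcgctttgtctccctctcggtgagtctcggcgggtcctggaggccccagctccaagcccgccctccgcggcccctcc

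Of 19 tested genes known to respond to gp130 cytokines, Socs3 and Serpina3n fell and none rose (median -0.02). Serpina3n, a serine protease inhibitor, had 5.43, 8.12, 6.7 and 13.4 CPM in the cKO libraries, against 18.6, 23.1, 29.1 and 22.7 CPM in the WT libraries (log2 fold change -1.47, SE 0.26, edgeR adjusted p = 0.0181). Its call was lost without WT 2, WT 4, cKO 2 or cKO 3. Vip, a peptide gene that these cytokines induce in cultured sympathetic neurons, had 6.61 ± 1.41 CPM in cKO and 6.74 ± 2.89 CPM in WT ganglia (SD, n = 4 each), and a log2 fold change of -0.03 (SE 0.28). Vip, Jak1, Jak2, Cntf, Isl2, Mnx1, Lhx3 and Scn10a were named after their values were seen.

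Of 12 tested genes of choline and acetyl supply 1 fell and none rose (median -0.12). Slc44a5, of the choline transporter-like family, had 36.0, 35.7, 49.7 and 41.1 CPM in the cKO libraries, against 73.1, 83.1, 73.2 and 87.5 CPM in the WT libraries (log2 fold change -0.96, SE 0.13, edgeR adjusted p = 0.00563). It passed with each library left out, and not without both cKO 4 and WT 4 (adjusted p = 0.0614). Among 12 esterase and synapse partner genes none passed (median 0.01), where the smallest p belonged to Lrp4, at 0.69 (SE 0.17, edgeR adjusted p = 0.0644), and Dok7, at -0.41 (SE 0.16), on the log2 scale. Of 3 tested muscarinic receptor genes 1 fell. Chrm2, which encodes the M2 receptor, had 15.3, 17.1, 15.4 and 13.2 CPM in the cKO libraries, against 22.9, 35.2, 24.9 and 32.3 CPM in the WT libraries (log2 fold change -0.92, SE 0.16, edgeR adjusted p = 0.0174). The groups did not overlap, and the call was lost without WT 2, WT 4 or cKO 3.

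Of 12 tested markers of cholinergic sympathetic neurons and their growth factor receptors, Ntrk3 rose and none fell (median 0.15). Ntrk3, the neurotrophin-3 receptor, had 17.1, 18.7, 17.9 and 16.9 CPM in the cKO libraries, against 13.4, 12.5, 11.5 and 12.5 CPM in the WT libraries (log2 fold change 0.50, SE 0.11, edgeR adjusted p = 0.0393). That call was lost with any library left out except WT 1 (adjusted p up to 0.139). Among 9 noradrenergic genes none passed, with Th at -0.12 (SE 0.09), Dbh at -0.19 (SE 0.09), Slc18a2 at 0.04 (SE 0.11) and the noradrenaline transporter gene Slc6a2 at -0.51 (edgeR adjusted p = 0.0545) on the log2 scale. Cyb561, an electron carrier of transmitter vesicles, stood at -0.28 (edgeR adjusted p = 0.0985). Of the 9, 7 were negative, with a median of -0.19. Dbh, Slc6a2 and Cyb561 were lower without overlap between groups, where 5.02% of all tested genes were. Of 5 motor neuron genes, which could mark other cholinergic cells, 2 were tested and neither passed. Their summed level was 79 to 108 CPM in cKO and 62.8 to 98 CPM in WT libraries. Foxp1, also expressed in many other cells, made up most of it, with 90.4 ± 17.6 CPM in cKO and 79.3 ± 14.2 CPM in WT ganglia (SD, n = 4 each). Aldh1a2 had 2.31 ± 0.432 CPM in cKO and 1.78 ± 0.8 CPM in WT ganglia. Isl2, also a gene of sensory neurons, had 151 counts over the cKO libraries, 144 of them in cKO 4, and 26 over the WT libraries, 20 of them in WT 4. Mnx1 had 1 count over the cKO and 0 over the WT libraries, and Lhx3 had 0 over the cKO and 2 over the WT libraries. The part of such cells in the cholinergic genes was not tested.

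**Figure D5:**
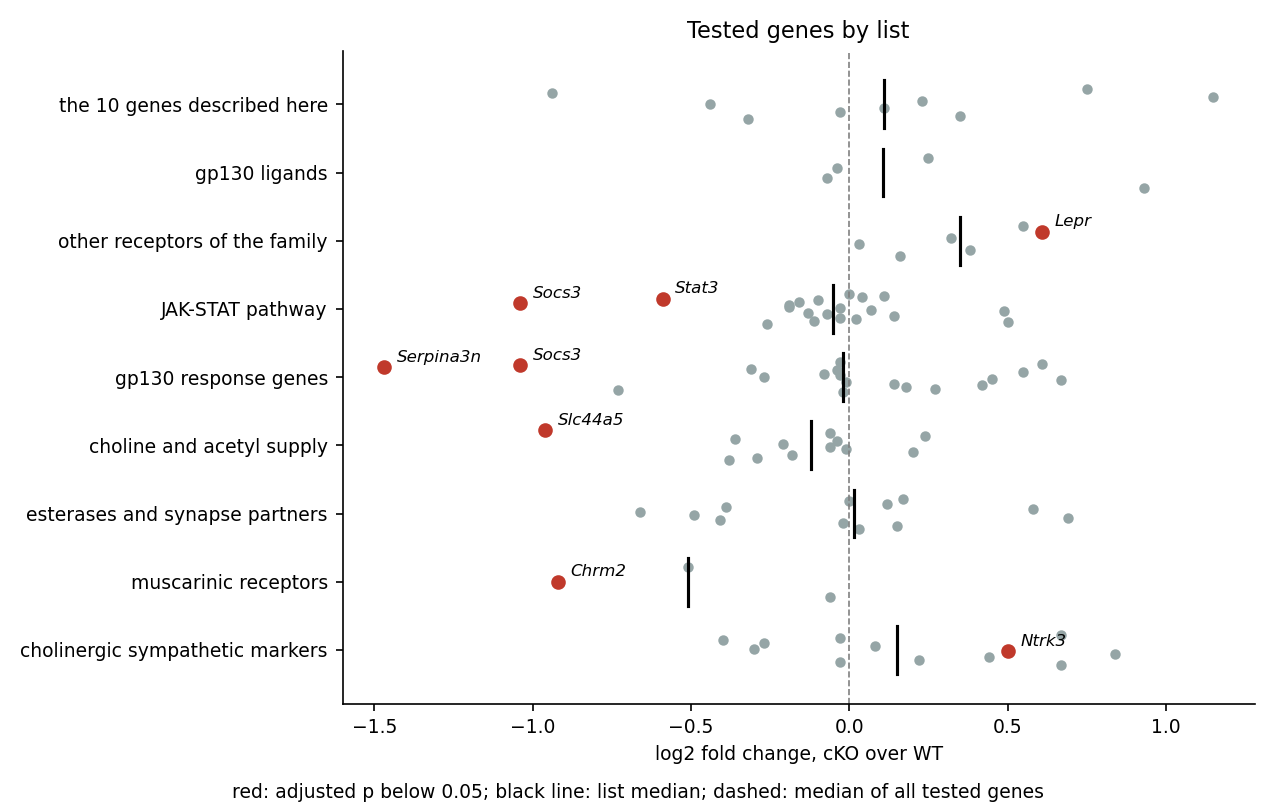
Log2 fold change, cKO over WT, of the tested genes among the 10 and in 8 lists, with passing genes in red and named, list medians as black lines and the median of all tested genes dashed. Stat3, Socs3, Serpina3n, Slc44a5 and Chrm2 lie to the left, Lepr and Ntrk3 to the right, and most genes lie near 0.

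By Pearson's correlation of log2 CPM over the 8 libraries, the genes most like Lifr among 12084 genes with a mean log2 CPM above 2 were Ppp1r16b (r = 0.995), Kif5a (r = 0.991) and Rab5b (r = 0.99). On the log2 scale Ppp1r16b stood at -0.39 (SE 0.17), Kif5a at -0.39 (SE 0.14) and Rab5b at -0.32 (SE 0.12), and none passed. The genes most like Chat were Adamts7 (r = 0.947), E2f4 (r = 0.946) and Tmbim1 (r = 0.908). The points share libraries, depth and group, the highest of many correlations are picked, and Chat rests on 40 counts in all.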

How the data were processed

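RNA came from both superior cervical ganglia of each mouse, as TruSeq v2 libraries per the labels' protocols. The values deposited by the authors are read counts, whole numbers for each gene symbol. The submitters' processing notes name STAR and mm10, while the sources used here leave out the STAR version, the counting program, the annotation and whether strand was used. Libraries held 16214912 to 18114418 counts, and intervals on counts cover counting error only.

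The group comparison used edgeR 4.0.16 (R 4.3.3) with filterByExpr, TMM scaling and a robust quasi-likelihood fit without covariates. Benjamini-Hochberg adjustment ran over 14592 genes. Standard errors were obtained from the log2 fold change and F. Log2 CPM had a prior count of 2, and exact permutation tests on log2 CPM used all 70 assignments. On simulated counts the fit recovered 23.9% of 1.5-fold, 80.6% of 2-fold and 98.5% of 4-fold changes, and 4.26% of its calls were false. Most changes of 1.5-fold were thus missed. Libraries of 1 group differed from each other by more than counting noise, with a chi-square per gene of 8 to 58.6. Coordinates and exon lengths are from GENCODE vM21 and promoters from RefSeq. All 219 list symbols were found, 1 of them under an older symbol.

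The naming rule took the 10 genes, Kif1b, Th, Dbh and Slc18a2, at most 4 passing genes per list (the 2 lowest p-values if none passed), and the 3 genes most correlated with Chat and with Lifr. Marker lists are given mainly by counts. A list and 1 gene of another are not reported here, and no count includes them except those over all genes. The 10 genes and all lists were chosen with earlier results of these data known. Alternatives were DESeq2 1.42.0, limma 3.58.1, other scalings and filters, a block for sample numbers, and libraries left out.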

Additional observations from a re-analysis of the deposited data

Results flagged for a closer look

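Among 49 genes, 98 groups of 4 libraries were screened for a library far from the others, and 4 were found, where chance gives about 1 in 20. None was among the 10 genes. Lepr had 27.5 CPM in cKO 2 against 21.5 to 22.2 CPM in the other cKO libraries. Notch3, a mural cell gene, had 59.7 CPM in cKO 1 against 42.1 to 43.7 CPM in the other cKO libraries. In WT 1, Mbp, a myelin gene, had 108 CPM and Pecam1, an endothelial gene, had 47.2 CPM, against 82.7 to 86.1 and 41.2 to 41.7 CPM in the other WT libraries.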

How the results depend on the processing

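Over 17 alternatives to the edgeR fit, Slc18a3, Slc5a7, Ache, Prima1, Tlx3, Lifr and Cntfr kept their direction. Slc18a3 passed with DESeq2's Wald test (1.14, adjusted p = 0.00882), with limma voom (1.26, adjusted p = 0.0498) and without both cKO 1 and WT 1 (1.42), and ranged from 0.96 to 1.57 with 1 library left out. Slc5a7 passed without the filter (-0.94, adjusted p = 0.0459) and with DESeq2 (-0.95), and ranged from -1.13 to -0.76 with 1 library left out. Hmx1 turned to 0.024 by library size alone, 0.0065 with limma voom, 0.044 without both cKO 1 and WT 1 and 0.032 without both cKO 4 and WT 4, and ranged from -0.19 to 0.18 with 1 library left out. Il6st ranged from -0.0068 to 0.2 in the same way. Of the other named genes, Lif ranged from -0.12 to 0.52 and Slc18a2 from -0.018 to 0.15 with 1 library left out, and Slc18a2 was -0.0094 without both cKO 1 and WT 1. The causes were not tested.

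The 10 genes gave 0 calls in the main analysis, 1 without the filter, with limma voom and without both cKO 1 and WT 1, 2 with DESeq2, and 0 to 1 with 1 library left out. The count over all genes, 397, was 977 with DESeq2, 65 without both cKO 4 and WT 4, and 74 (without WT 4) to 514 with 1 library left out, with 79 without WT 2, 137 without cKO 3, 147 without cKO 2 and 249 without WT 3. The 7 calls in the pathway lists were 12 with DESeq2, 1 without both cKO 4 and WT 4, and 2 (without cKO 3, WT 2 or WT 4) to 10 with 1 library left out, with 3 without cKO 2 and 4 without WT 3. Leaving out libraries also lowers the number of samples.

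Same-numbered samples did not deviate together in each pair (r = 0.725, 0.352, -0.302 and 0.265 for numbers 1 to 4), so the numbers were not taken as pairs, although 3 of 4 correlations were positive, and some samples correlated best with another number (cKO 2 with WT 3, r = 0.404). With a replicate block the 10 genes gave 2 calls and all genes 687, with Slc18a3 at 1.23 (adjusted p = 0.0142), Slc5a7 at -0.98 (adjusted p = 0.0147) and Hmx1 at 0.0049.

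With the longest transcript as the length, levels in cKO and WT ganglia were 0.139 and 0.0638 CPM per kb for Chat, 56.4 and 70.7 for Ache, and 59.8 and 60.9 for Hmx1. They were 13.6 and 11.5 for Prima1, 14.3 and 13.3 for Il6st, and 85.6 and 67.3 for Cntfr. The order thus depended on the length used. By longest transcript, Ache and Cntfr ranked above Hmx1 in WT ganglia, and Il6st ranked above Prima1 in cKO ganglia. Chat, Tlx3 and the ligand genes are limited by depth.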
